A study of Mus musculus with 2 samples.

Results

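Genes of the cytosolic ribosomal proteins were examined in mouse dorsal root ganglia, the ganglia that hold the cell bodies of sensory neurons serving the skin. They were taken by symbol, as all rows whose name is Rpl or Rps followed by a number and an optional suffix, together with Rplp0, Rplp1, Rplp2 and Rpsa. Names of pseudogenes and of the S6 kinases were left out. This gave 84 of the 23282 rows, 51 of the large subunit and 33 of the small subunit. Of these, 77 are the standard subunit genes and 7 are relatives with a similar name (Rpl3l, Rpl7l1, Rpl10l, Rpl22l1, Rpl39l, Rps4l and Rps27l). The treated group was wild-type mice given the acetone/ether/water treatment (AEW) for 5 successive days, with ganglia taken on day 6. This treatment dries the skin and is used to model chronic dry-skin itch. The control group was wild-type mice given water. Each group was a pool of the RNA of 6 mice, taken here to be its 1 library, so no difference below has a replicate check. Effects of the treatment and variation between animals or preparations cannot be told apart. The labels do not state age, sex or strain.

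The ribosome joins a small subunit, which reads the messenger RNA, to a large subunit, which makes the peptide bond, and each holds ribosomal RNA and a fixed set of proteins. Messenger RNAs of these proteins begin with a run of pyrimidines, the terminal oligopyrimidine (TOP) element, through which the kinase complex mTORC1 and the RNA-binding protein LARP1 control their translation and stability. In sensory neurons these messenger RNAs are also found in axons.

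The AEW library held 14376228 counts and the control library 9333882. The labels call the cells neurons, and all 22 pan-neuronal markers were measured, but so were 15 of 15 macrophage, 12 of 12 Schwann cell and 12 of 12 skeletal muscle markers, so the values are those of mixed tissue. Here fewer cells of a type and less RNA per cell cannot be told apart. Levels are given as scaled CPM, counts divided by the TMM-scaled library size and multiplied by 1000000. A gene was measured when it had at least 20 counts over both libraries. It was called higher or lower when the AEW to control ratio was at least 1.5-fold away from 1 and its exact 95% counting interval left out 1. Intervals cover counting error only.

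Most ribosomal protein genes lay somewhat lower in the AEW library, and a minority accounted for most of the difference. Of the 84 genes, 82 were measured. The call was lower for 18 of them (22.0%), against 14.9% of the 14854 measured genes, and higher for 1 (1.22%), against 17.3% of measured genes. Among the 4422 genes with at least 1000 counts, which match the depth of most ribosomal protein genes more closely, 10.2% were called lower and 15.0% higher. Of 215 other genes with transcripts of at most 1000 bases and over 100 scaled CPM, 20.9% were called lower and 7.91% higher. The share of ribosomal protein genes called lower was near that of these short and abundant genes. The median log2 ratio of the ribosomal protein genes was -0.20, with quartiles of -0.55 and 0.01, against 0.03 over all measured genes with quartiles of -0.39 and 0.43. A total of 60 of the 82 lay below 0, against 7099 of all 14854. After a correction for the length trend of all genes, the median of the ribosomal protein genes was -0.015, against 0.058 over all genes. In this setting 14 of them were called lower (17.1%), against 13.8% of all genes.

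The remaining 63 measured genes passed neither threshold. In 29 the interval lay below 1 with a difference under 1.5-fold, in 24 the interval included 1, and in 10 it lay above 1 with a difference under 1.5-fold. The genes differed among themselves by far more than their counting error. The SD of the log2 ratio was 0.43 over the 82 genes, whereas the root mean square counting error was 0.06. It was 0.69 over all genes with at least 1000 counts.

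**Figure D1:**
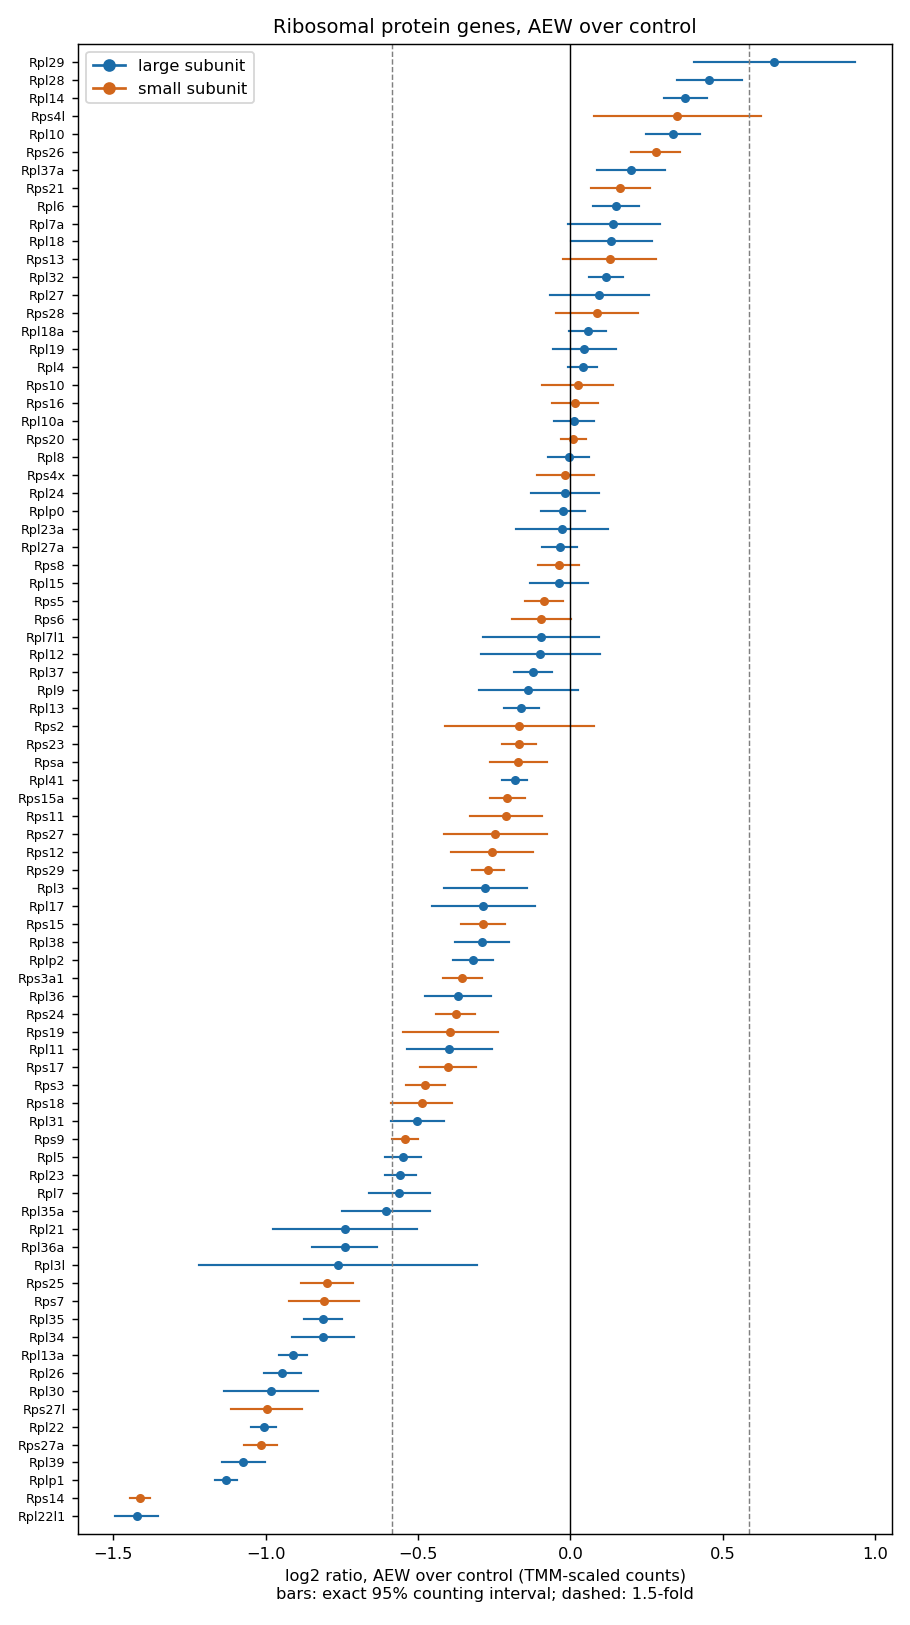
Log2 AEW to control ratio of each of the 82 measured ribosomal protein genes, ordered by the ratio, with points coloured by subunit, bars for the exact 95% counting interval (1 library per group) and dashed lines at 1.5-fold. The lowest are Rpl22l1 and Rps14 (ratios of 0.373 and 0.375), and Rpl29 at 1.59 is the 1 gene called higher.

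In the large subunit, 13 of 49 measured genes (26.5%) were called lower and 1 higher, with a median log2 ratio of -0.16. In the small subunit, 5 of 33 (15.2%) were called lower and none higher, with a median of -0.21. Among all measured genes 14.9% were called lower, so the share in the small subunit was near the background. Among the 215 short and abundant other genes the share was 20.9%. No test of a difference between the subunits was made. Leaving aside the 7 relatives, 15 of 77 standard genes (19.5%) were called lower and 1 higher, with a median of -0.18.

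Together the 84 genes took 1.97% of the AEW counts (exact binomial interval 1.97 to 1.98) and 2.49% of the control counts (2.48 to 2.50). Their summed level was 19134 scaled CPM in the AEW library and 25637 in the control library, a ratio of 0.746 (0.742 to 0.750). The difference was carried unevenly. Rps14 alone made up 21.2% of it, and Rps14, Rplp1 and Rpl22 together 42.9%. Without the 10 genes that contributed most, the ratio of the sums was 0.895 (0.889 to 0.901).

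**Figure D2:**
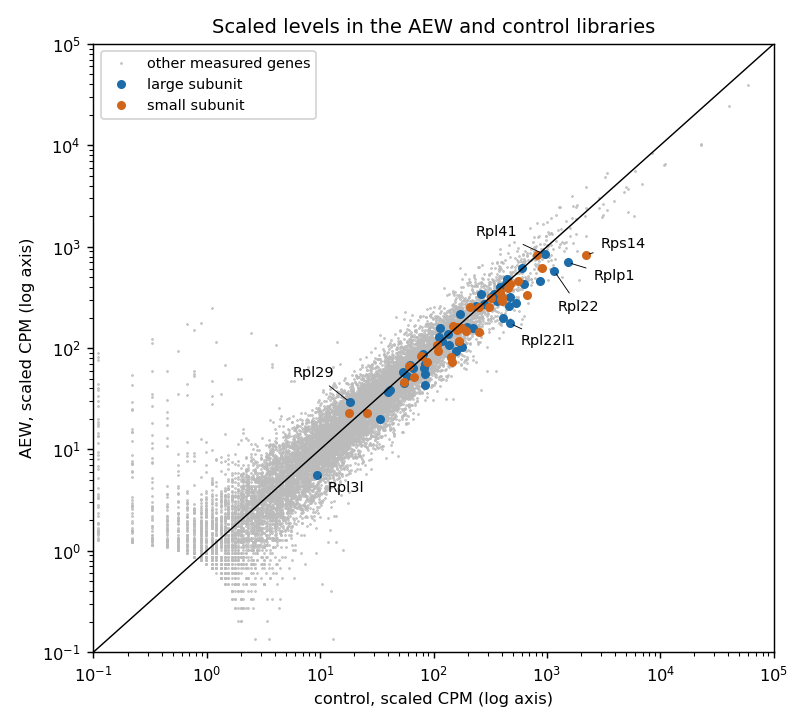
Scaled CPM of each measured gene in the AEW library (vertical, log axis) and the control library (horizontal, log axis), with ribosomal protein genes in colour and the line of equal levels. Rps14, Rplp1 and Rpl22 lie among the most abundant ribosomal protein genes and well below the line.

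The start of the gene is shown for members with ratios below, near and above 1. They are shown because all carry a pyrimidine run near an annotated start. Where a gene has several annotated starts, the one with the longest run is shown. Sequences are RefSeq start regions on GRCm38.p6, 30 bases each, 5′ to 3′ on the transcribed strand, with the longest pyrimidine run between 30 bases before and 50 after the start in capitals. Relative to the annotated start, the run opens at 36 in Rpl39, 21 in Rpl26, 2 in Rpl13a and -7 in Rpl35. It opens at 1 in Rpl22l1, -4 in Rpl27a, -8 in Rpl14 and -3 in Rpl28. Several runs thus do not open at the annotated start, where a TOP element would. Rpl39, Rpl26, Rpl13a and Rpl35 were standard genes called lower, Rpl22l1 is a relative called lower, and Rpl27a (0.977), Rpl14 (1.30) and Rpl28 (1.37) were not called. The windows are chrX:37085173-37085202 (minus strand) for Rpl39, chr11:68901579-68901608 (plus) for Rpl26, chr7:45128722-45128751 (minus) for Rpl13a, chr2:39005115-39005144 (minus) for Rpl35, chr3:28805499-28805528 (plus) for Rpl22l1, chr7:109519186-109519215 (plus) for Rpl27a, chr9:120571501-120571530 (plus) for Rpl14 and chr7:4792953-4792982 (plus) for Rpl28.
Rpl39: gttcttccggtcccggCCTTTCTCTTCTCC
Rpl26: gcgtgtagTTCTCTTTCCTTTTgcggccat
Rpl13a: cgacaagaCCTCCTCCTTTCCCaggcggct
Rpl35: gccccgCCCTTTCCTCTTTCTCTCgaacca
Rpl22l1: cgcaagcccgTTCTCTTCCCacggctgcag
Rpl27a: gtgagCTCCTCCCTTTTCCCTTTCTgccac
Rpl14: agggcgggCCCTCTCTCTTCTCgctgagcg
Rpl28: cctctcgtgTCTCTCTTTCCgtctccggcc

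A start region was matched for 63 of the 84 genes. A gene with several start regions was counted when any of them held the motif. A run of at least 8 pyrimidines was present in this stretch in 49 of the 63 (77.8%), against 32.3% of 27025 genes. The ETS core CCGGAAG was searched on both strands over 250 bases before to 50 after the start and was present in 26 (41.3%), against 9.93% of all genes. Its reverse complement opens with pyrimidines, so it can overlap a pyrimidine run. The full consensus of the factor YY1 was in none, against 0.755% of all, and TATAAA was in 7 (11.1%), against 15.7% of all. Of the 48 measured genes with a pyrimidine run, 12 were called lower, with a median log2 ratio of -0.23. Of 13 without one, 1 was called lower, which was Rpl22, with a median of -0.02. Of 21 with no matched region, 5 were called lower, with a median of -0.27. These counts are descriptions, and a run of these letters does not show where transcription started in these ganglia.

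In the large subunit, Rplp1 had the lowest ratio of the standard genes. Rplp1, an acidic protein of the stalk that recruits elongation factors, had 10362 counts in the AEW library and 13866 in the control library, or 699 against 1531 scaled CPM. Its ratio was 0.457 (0.445 to 0.468), and it lies on chromosome 9 (mm10, 61913284 to 61914542, minus strand). The other stalk proteins did not share this ratio. Rplp0, the base of the stalk, had 274 scaled CPM in the AEW library and 278 in the control library, a ratio of 0.984 (0.936 to 1.03). Rplp2, the partner of Rplp1, had 292 against 364 scaled CPM, a ratio of 0.802 (0.766 to 0.839). Rplp1 was thus called lower while the interval of Rplp0 included 1, and none of these genes was called higher.

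Rpl22, a surface protein without which mice are viable, had 8547 counts in the AEW library and 10495 in the control library, or 577 against 1159 scaled CPM, a ratio of 0.498 (0.484 to 0.512). Its gene spans 152325742 to 152334071 on the plus strand of chromosome 4. Rpl39, a small protein that lines the exit tunnel, had 197 against 414 scaled CPM, a ratio of 0.475 (0.453 to 0.499). Rpl26, at the mouth of the tunnel, had 278 against 536 scaled CPM, a ratio of 0.519 (0.498 to 0.541). Of other proteins of the tunnel or its exit, Rpl35 was called lower at 0.570 (0.545 to 0.595). Rpl4 and Rpl19 (1.03 each), Rpl23a (0.981) and Rpl17 (0.821) were not called. These genes were named as tunnel proteins after their values were seen. Rpl13a, which in human cells is also released from the ribosome to silence inflammatory messenger RNAs, had 462 against 868 scaled CPM, a ratio of 0.532 (0.515 to 0.550). Rpl30, whose yeast counterpart controls splicing of its own transcript, had 42.8 against 84.5 scaled CPM, a ratio of 0.506 (0.455 to 0.563). The other standard large subunit genes called lower were Rpl34, Rpl36a, Rpl21 and Rpl35a, with ratios of 0.569 to 0.658. The closest to the threshold was Rpl35a at 0.658 (0.595 to 0.727), and Rpl7 (0.678) and Rpl23 (0.679) lay just outside it.

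In the small subunit, Rps14 stood lowest. Rps14, a protein of the platform whose loss causes the anaemia of the human 5q deletion syndrome, had 12275 counts in the AEW library and 19976 in the control library. Its level was 828 scaled CPM (814 to 843) in the AEW library and 2206 (2176 to 2237) in the control library, a ratio of 0.375 (0.367 to 0.384). By scaled CPM per kb of coding sequence, a measure that depends on coding length, it ranked the fifth in the AEW library, at 1816. In the control library it ranked the second, at 4838. Its gene spans 60747098 to 60778546 on the plus strand of chromosome 18. Rps27a, which is made as a fusion with ubiquitin, had 331 against 669 scaled CPM, a ratio of 0.494 (0.476 to 0.513). Its exons overlap those of Clhc1 on the opposite strand. Rps7 and Rps25 were called lower at 0.571 and 0.575, and Rps9 at 0.686 lay outside the threshold.

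Rpl29 was the gene called higher. It encodes a surface protein of the large subunit, also known as a heparin-interacting protein, and had 432 counts in the AEW library and 166 in the control library, or 29.1 (26.5 to 32.0) against 18.3 (15.7 to 21.3) scaled CPM. The ratio was 1.59 (1.33 to 1.91). Its transcript shares 50-base stretches with 81 annotated pseudogenes, and the call was not made when the interval had to leave out 1.5-fold or after a correction for GC content. Rpl28, at 157 against 115 scaled CPM, and Rpl14, at 339 against 261, had ratios of 1.37 and 1.30 and were not called. Rpl10, which is added late in assembly at the catalytic centre, had 216 against 171 scaled CPM, a ratio of 1.26 (1.19 to 1.34). Rps26, at the exit of the messenger RNA channel, had 254 against 209 scaled CPM, a ratio of 1.21 (1.15 to 1.28). Rpl37a, Rps21, Rpl6 and Rpl32 followed with ratios of 1.09 to 1.15.

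Rps6, the target of the S6 kinases, had 150 against 161 scaled CPM, a ratio of 0.936 (0.876 to 1.001). Rpsa, also known as the laminin receptor, had 157 against 177, a ratio of 0.889 (0.833 to 0.948). Rpl5 and Rpl11, which together hold back the p53 regulator Mdm2 when assembly fails, had ratios of 0.684 and 0.759, neither of them called. Rps6, Rpl5 and Rpl11 were chosen after their values were seen. Per kb of coding sequence, the highest scaled CPM in the AEW library belonged to Rpl41 at 10769, Rps29 at 2678, Rps20 at 2295, Rplp1 at 2027 and Rps14 at 1816. Of these, Rplp1 and Rps14 were called lower, whereas Rpl41 (0.881), Rps29 (0.829) and Rps20 (1.01) were not. These ranks depend on the divisor, because reads were counted per gene and not per coding sequence. Rpl41 has 78 coding bases in a transcript of 544. Before division its level in the AEW library was 840 scaled CPM, near Rps14 at 828 and Rps20 at 826.

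The like-named relatives had unlike ratios. Rpl22l1, the paralogue of Rpl22 that can take its place in the ribosome, had the lowest ratio of all. It had 2598 counts in the AEW library and 4257 in the control library, or 175 against 470 scaled CPM, a ratio of 0.373 (0.355 to 0.392), and lies on chromosome 3 (28805436 to 28807424, plus strand). Its share of the counts of the pair with Rpl22 was 23.3% (22.5 to 24.1) in the AEW library and 28.9% (28.1 to 29.6) in the control library, so both members were lower and the paralogue more so. Rps27l, a p53-induced relative of Rps27, had 73.2 against 146 scaled CPM, a ratio of 0.501 (0.462 to 0.543), while Rps27 had a ratio of 0.843. Its share of that pair was 61.2% (58.9 to 63.5) in the AEW library and 72.7% (70.5 to 74.7) in the control library.

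Rpl3l, the form of Rpl3 used in striated muscle, had 82 against 85 counts, or 5.53 against 9.39 scaled CPM, a ratio of 0.589 (0.430 to 0.808). Of 12 markers of skeletal muscle, 9 were also called lower and none higher, with a summed level of 1118 against 2339 scaled CPM, and their part in the result was not tested. Rpl7l1 and Rps4l were not called, with ratios of 0.936 and 1.27. Rps4l is annotated as a transcribed processed pseudogene. The genes known from testis were near absent. Rpl10l had 0 counts in each library, and the limit of 3 counts that a count of 0 is taken to allow is 0.202 scaled CPM in the AEW library and 0.331 in the control library. Rpl39l had 14 counts in the AEW library and 1 in the control library, a ratio of 8.55 (1.30 to 362), and was below the count minimum.

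Sequence that ribosomal protein genes share with their processed copies makes single rows uncertain, and no source used here states the counting rule for reads that match in several places. On GENCODE M21 transcripts, 81 of the 84 genes share at least 1 stretch of 50 bases with another gene, and 48 measured genes share over 50% of theirs. Of those 48, 13 were called lower, with a median log2 ratio of -0.27, against 5 of the 34 others, with a median of -0.11. The shared percentage itself had a Spearman correlation of -0.02 with the log2 ratio over the 82 genes, which share both libraries. Near copies by name make up 10 rows, among which Rpl36al and Rps27rt are annotated as protein coding. Of the 10, 3 were called lower and none higher, with a median of -0.50. Over all measured genes, 14.9% were called lower and 17.3% higher.

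For several genes the copy held more counts than the parent. Rpl37rt had 10861 counts in the AEW library and 9936 in the control library, a ratio of 0.668 (0.650 to 0.686). Rpl37, a zinc-binding protein of the large subunit, had 5228 against 3476, a ratio of 0.919 (0.880 to 0.959). Their sum had a ratio of 0.733. Rpl37rt is annotated as a transcribed processed pseudogene. The coding sequence of Rpl37 is 294 bases long, and the matching stretch of Rpl37rt is 99.66% identical, with 1 mismatch, so only reads over that base or outside this stretch can separate them. Bases 219 to 278 of the coding sequence are shown because they hold the mismatch, which is in capitals (mm10, chromosome 15 for Rpl37 and chromosome 5 for Rpl37rt).
Rpl37: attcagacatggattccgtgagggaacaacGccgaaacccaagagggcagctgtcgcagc
Rpl37rt: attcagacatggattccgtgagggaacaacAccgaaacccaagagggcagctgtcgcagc

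Rplp2-ps1 had 9029 counts in the AEW library and 7606 in the control library, more than Rplp2 itself, which had 4325 and 3295. The ratios were 0.725 and 0.802 and that of the sum 0.748. Rps27rt had a ratio of 0.596 (0.552 to 0.642) against 0.843 for Rps27, and the sum reached 0.660, past the threshold. For Rpl36a and Rpl36al the order was opposite, at 0.599 and 0.854, and the sum at 0.740 was no longer past the threshold. Rpl31 and Rpl31-ps12 had 0.706 and 0.412, and their sum 0.599. For Rps27, Rpl31 and Rpl36a the call thus depended on whether the copy was added, a sum chosen after the data were seen.

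**Figure D3:**
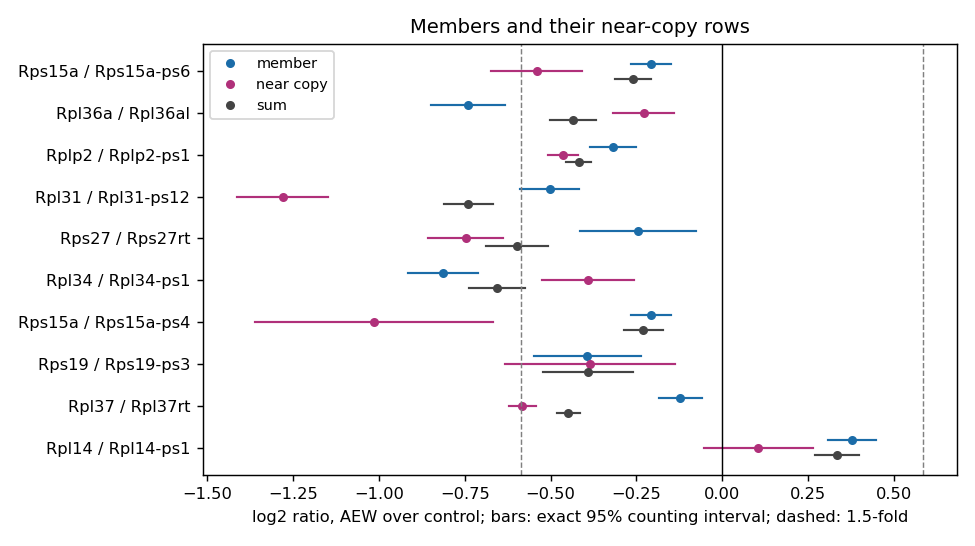
Log2 AEW to control ratio of ribosomal protein genes (member), of their near-copy rows and of the sum of both rows, with bars for exact 95% counting intervals and dashed lines at 1.5-fold. Parent and copy differ widely for Rps15a and Rps15a-ps4 (ratios of 0.866 and 0.495) and for Rpl31 and Rpl31-ps12 (0.706 and 0.412), and the sum passes the threshold for Rps27 and Rpl31 although the parent does not.

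Transcripts of ribosomal protein genes are short, with a median of 777.5 bases against 2764 over all measured genes. Lengths are those of 1 annotated transcript per gene, so they depend on the transcript chosen. For Rps15a it has 5130 bases, of which 393 are coding, and for Rps20 3706, of which 360 are coding. The shared percentages above rest on the same transcripts. Among other genes the median log2 ratio was lowest for the shortest transcripts but did not rise steadily with length. It was 0.06 from 1000 to 2000 bases, 0.07 from 2000 to 4000 and -0.03 above 4000. Other genes of at most 1000 bases numbered 1214 and had a median log2 ratio of -0.07, with 20.6% called lower and 17.9% higher. The 215 of these above 100 scaled CPM also had a median of -0.07, with 20.9% called lower and 7.91% higher. The 61 measured ribosomal protein genes of at most 1000 bases had a median of -0.25 with 16 called lower, and the 21 longer ones a median of -0.10 with 2 called lower. Of the 77 mitochondrial ribosomal protein genes, 26 are this short, and these had a median of 0.07 with 1 called lower. Within the 82 genes the Spearman correlation of the log2 ratio was 0.20 with transcript length, 0.18 with GC content and -0.19 with mean level, over points that share both libraries. The part of length in the result was not tested beyond the correction given above.

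**Figure D4:**
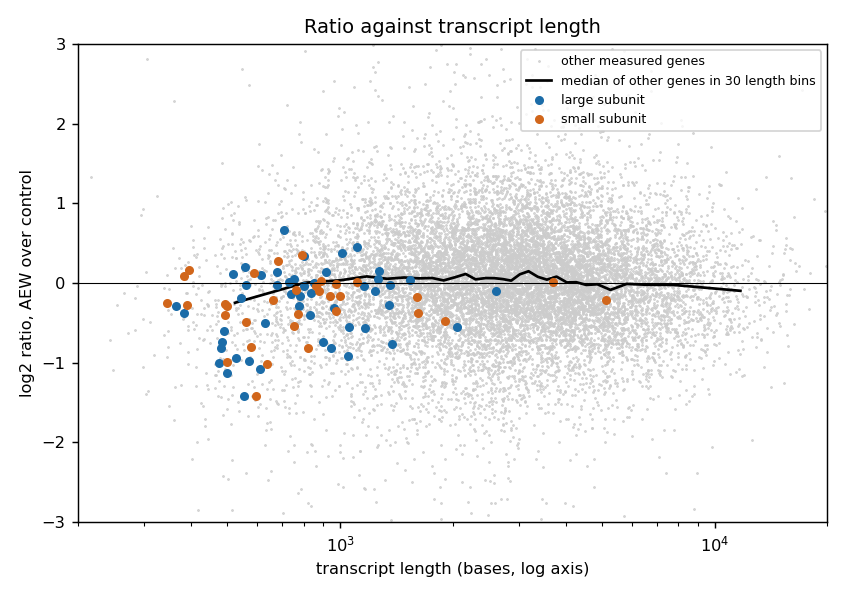
Log2 AEW to control ratio (vertical) against transcript length in bases (horizontal, log axis) for ribosomal protein genes, coloured by subunit, and other measured genes (grey, with their running median as a black line). The ribosomal protein genes sit at the short end, where 61 of 82 are at most 1000 bases long with a median log2 ratio of -0.25.

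Other parts of the translation machinery are read against 17.3% of all measured genes called higher, 14.9% called lower and a median of 0.03. Mitochondrial ribosomal proteins, which serve the ribosome of mitochondria, had a median log2 ratio of 0.15, with 7 of 77 called higher and 2 lower. Mrps9 had 44.8 against 26.6 scaled CPM, a ratio of 1.68 (1.45 to 1.96), and Mrpl33 had 96.2 against 185, a ratio of 0.520 (0.484 to 0.559). Initiation factors had a median of 0.02, with 2 of 42 called higher and none lower, led by Eif2b1 at 2.20 (1.73 to 2.84). The list of elongation factors had a median of 0.03, with 1 of 14 called higher and 2 lower. The 2 called lower were Tpt1 and the release factor gene Gspt1 (0.663, 0.605 to 0.726), neither of them an elongation factor. Eef1a2, the elongation factor form of mature neurons and muscle, had 368 against 147 scaled CPM, a ratio of 2.50 (2.35 to 2.65). Tpt1, whose messenger RNA is of the TOP class, had 968 against 1486 scaled CPM, a ratio of 0.652 (0.637 to 0.667). Eef1a1 and Eef2, also of the TOP class and chosen after their values were seen, had ratios of 1.01 (0.976 to 1.04) and 1.05 (1.02 to 1.08).

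Ribosome assembly factors had a median log2 ratio of 0.14, with 12 of 86 called higher and 2 lower. Rrp36 (2.87) and Rrp1 (1.85), both for processing of ribosomal RNA, led the higher ones, and Rrp8 (0.547) and Bysl (0.609) were the lower ones. The RNA polymerase I machinery, which transcribes ribosomal RNA, had 4 of 15 called higher and 1 lower, with a median of 0.16. Among mTORC1 and regulators of ribosomal protein messenger RNA, 2 of 25 were called higher and 2 lower, with a median of 0.21. Larp1, which binds the TOP element, had 192 against 111 scaled CPM, a ratio of 1.72 (1.60 to 1.85). Akt1s1, an inhibitor subunit of mTORC1, had 7.02 against 2.54 scaled CPM, a ratio of 2.76 (1.75 to 4.55). Yy1, a transcription factor of many ribosomal protein promoters, had 40.1 against 71.2 scaled CPM, a ratio of 0.563 (0.502 to 0.630). Of dedicated chaperones and ribosomal stress genes, 2 of 18 were called higher and 3 lower, with a median of -0.04.

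Among the pathway lists the lowest median was that of the snoRNA host genes, whose spliced RNAs often begin with the same pyrimidine element. Of 14 measured, 7 were called lower and 1 higher (Snhg4, 1.79), with a median log2 ratio of -0.59. Snhg1 had 17.9 against 56.7 scaled CPM, a ratio of 0.316 (0.271 to 0.367), and Snhg18 had 42.2 against 115, a ratio of 0.368 (0.333 to 0.406). Of the ribosomal protein genes, 30 hold a snoRNA. These had a median of -0.16 with 4 called lower, against -0.26 with 14 called lower among the 52 others. The 6 measured cytosolic ribosomal proteins outside the name rule, in a list that includes the near copies Rpl37rt and Rps27rt, had a median of -0.20 with 1 called lower, and Fau, a fusion of a ubiquitin-like protein with a small subunit protein, had a ratio of 1.004 (0.948 to 1.06).

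**Figure D5:**
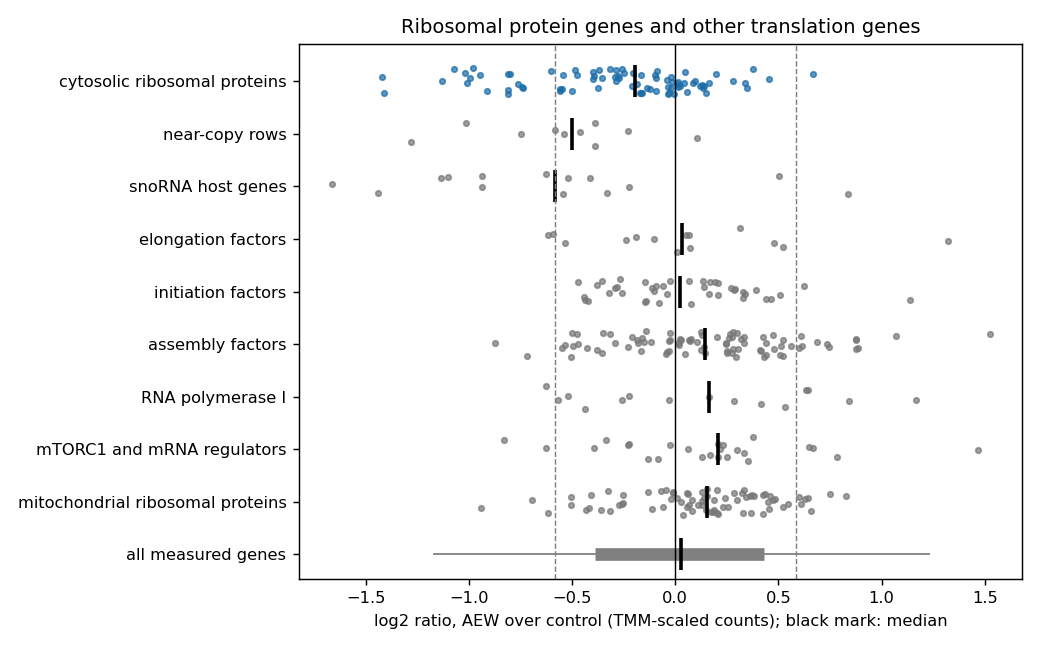
Log2 AEW to control ratio of the measured genes of each list, with points for genes and a black mark for the median. All measured genes are drawn as a thick bar between the quartiles and a thin line between percentiles 5 and 95, and dashed lines mark 1.5-fold. The medians are -0.20 for ribosomal protein genes, -0.59 for snoRNA host genes and 0.15 for mitochondrial ribosomal proteins.

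Markers of several cell types also differed between the libraries. Of 22 pan-neuronal markers, 14 were called higher and none lower, with a summed level of 17037 against 11003 scaled CPM. Of 15 macrophage markers, 14 were called lower, with a summed level of 350 against 920, and of 12 fibroblast markers, 8 were lower, with 7441 against 15364. Red blood cell markers had 8 of 11 called lower. Over all measured genes, 14.9% were called lower and 17.3% higher. Beside this, the lower calls were 2 of 12 Schwann cell (16.7%), 1 of 11 satellite glia (9.09%) and 2 of 10 endothelial markers (20%). None was called higher in these 3 lists. Of 15 measured epidermis and hair markers, 14 were called higher and 1 lower. All 16 markers in that list had a summed level of 1009 against 98.9 scaled CPM. Krt35 and Dsg3 were at 0 in the control library, and Dsg3, with 8 counts in the AEW library, was below the count minimum. The part of these cell types in the ribosomal protein values was not tested. With the libraries scaled so that the median pan-neuronal marker was at 0, 76 of the 82 ribosomal protein genes were called lower, but so were 61.0% of all genes, whose median moved to -0.80 against -1.02 for the ribosomal protein genes.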

How the data were processed

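RNA of pooled ganglia was sequenced from a Lexogen QuantSeq kit starting with 500 ng of total RNA, per the labels' protocols. Bowtie2, bedtools and the build mm10 are named in the submitters' processing notes. Their versions and settings, and the annotation, were not given in the sources used here, nor were strand, multiple matches, duplicates or restriction to 3′ ends. The authors deposited whole-number read counts per gene symbol for each library, with no unused column of sample values.

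Scaling used TMM in edgeR 4.0.16 (R 4.3.3), with factors of 1.03 for AEW and 0.970 for control. Ratios have exact conditional binomial intervals, and shares have Clopper-Pearson intervals. With 1 library per group no p-value was computed. Lengths, shared stretches and coordinates came from GENCODE M21 and start regions from RefSeq GRCm38.p6. Levels were compared per kb of coding sequence, although per kb of transcript had been planned, and the ranks depend on this choice. The calls were checked on simulated data and repeated with other scalings (DESeq2 1.42.0 among them), filters and corrections.

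Named are the 10 genes with the highest lower bounds and the 10 with the lowest upper bounds, stalk genes and Rpsa, relatives with their parents, the 5 highest levels per kb, genes at 0, and up to 4 genes per pathway list. Other genes were named after their values were seen. Members and lists were chosen with earlier results of these data known. Of the genes that this rule takes, 1 is not reported here.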

Additional observations from a re-analysis of the deposited data

How the results depend on the processing

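Scaling by total counts, upper quartile or DESeq2 size factors gave 17 to 20 ribosomal protein genes called lower and left Rpl29 as the gene called higher. Total counts moved the median of all genes to 0.11 and the split of all genes to 20.4% higher and 12.3% lower, against 17.3% and 14.9%. Scaling on the pan-neuronal markers gave 0 higher and 76 lower, medians of -1.02 (large subunit -0.98, small subunit -1.03), and 504 of all genes higher and 9066 lower. It shifts every gene alike, so all 22 ribosomal protein genes above 0 came to lie below it, among them Rpl29 (-0.15), Rpl37a (-0.62), Rpl6 (-0.67), Rps21 (-0.66), Rpl32 (-0.70) and Rps20 (-0.81). The length correction brought the medians to -0.015, -0.018 in the large and -0.012 in the small subunit, beside 0.058 over all genes. It ended the lower calls of Rpl34, Rpl35a, Rpl36a and Rps25. With no count filter 2 genes were higher, since Rpl39l was added. With an interval that leaves out 1.5-fold, 0 were higher and 15 lower, beside 1327 of all genes higher and 1071 lower. GC correction gave 0 higher and 19 lower. Totals without haemoglobin and Rn45s rows, with the ribosomal protein rows kept, gave shares of 2.15% in the AEW library and 2.84% in the control library. Summing near copies into their parents, chosen after seeing the data, gave 2.17% and 2.75%. A summed count of at least 100, thinning the AEW library to the control total and log2(CPM + 1) differences kept the same 18 lower calls. The cause of these shifts was not tested. No paired analysis was possible because each group has 1 library.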
